A study of Mus musculus with 72 samples.

Results

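The genes described here were 4 receptors that carry xenobiotic signals in the liver, Nr1i2, Nr1i3, Ahr and Rxra, and the electron donor of the cytochrome P450 enzymes, Por. They were taken by symbol from the 55573 genes of the count table, 5 genes in all, and each passed the filter on low counts in every comparison. Nr1i2 encodes the pregnane X receptor (PXR) and Nr1i3 the constitutive androstane receptor (CAR). Ahr encodes the aryl hydrocarbon receptor, Rxra the retinoid X receptor alpha, and Por the cytochrome P450 oxidoreductase.

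PXR and CAR bind drugs, bile acids and other foreign or endogenous molecules, pair with a retinoid X receptor on DNA, and switch on genes for oxidation, conjugation and export. The aryl hydrocarbon receptor waits in the cytoplasm with chaperones, is activated by planar aromatic compounds and by tryptophan derivatives that gut bacteria also make, and then pairs with ARNT on DNA. POR passes electrons from NADPH to the microsomal P450 enzymes that these receptors induce, and also to squalene epoxidase and heme oxygenase, so that P450 activity in hepatocytes depends on it.

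Liver RNA was sequenced from 72 male C57BL/6 mice (C57BL/6J in the study's methods) in 4 groups of 18, with 3 mice per group at each of 6 zeitgeber times (hours 2, 6, 10, 14, 18 and 22, counted from lights on in a 12 h light and 12 h dark cycle). WT mice carried floxed Bmal1 alleles (Bmal1 fl/fl) without Cre, and LKO mice carried the same alleles with Albumin-Cre, which acts in cells that express albumin, mainly hepatocytes, so that other liver cells keep the gene. SPF mice were kept conventionally under specific pathogen free conditions and GF mice were germ free, rederived and held in flexible film isolators. All 4 groups ate autoclaved chow ad libitum and were moved to single housing at 10 to 14 weeks of age.

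On the mouse assembly GRCm38, Nr1i2 spans chr16:38248323-38294824 on the minus strand, Nr1i3 chr1:171213970-171220701 on the plus strand, Ahr chr12:35497974-35535038 on the minus strand, Rxra chr2:27676440-27762957 on the plus strand and Por chr5:135670033-135735326 on the plus strand. A library held 1023 to 2366 reads of Nr1i2, 455 to 1719 of Nr1i3, 660 to 1809 of Ahr, 4468 to 11192 of Rxra and 681 to 11976 of Por. The exons of Nr1i3 share 3304 of their 4414 bases (74.9%) with Tomm40l on the opposite strand, a gene for a mitochondrial import pore subunit. Reads were counted without strand and reads that fell on both genes were dropped, so the Nr1i3 counts came from the other 1110 bases. Ahr shares 127 of its 6163 exon bases (2.06%) with an antisense gene.

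The RNA of Nr1i2, Nr1i3 and Por moved with Bmal1 genotype and, in some groups, with ZT. The promoter window of Nr1i2 is not printed. Those of Nr1i3 and Por are shown. Each runs from 250 bases before to 50 bases after the transcription start that RefSeq gives on GRCm38.p6, 5′ to 3′, at chr1:171213720-171214019 for Nr1i3 and chr5:135688895-135689194 for Por, both on the plus strand. Capitals mark the motifs searched on both strands, which were the E-box CACGTG (the site that BMAL1 and its partners bind), the D-box TTATGTAA or TTACGTAA, the nuclear receptor half-site AGGTCA and the core of the aryl hydrocarbon response element, GCGTG.
Nr1i3: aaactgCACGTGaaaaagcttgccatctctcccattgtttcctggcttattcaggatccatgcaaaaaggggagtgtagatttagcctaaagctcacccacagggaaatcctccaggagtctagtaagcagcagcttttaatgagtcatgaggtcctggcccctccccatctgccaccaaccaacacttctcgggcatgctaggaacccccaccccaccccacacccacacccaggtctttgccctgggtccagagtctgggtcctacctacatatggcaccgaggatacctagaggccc
Por: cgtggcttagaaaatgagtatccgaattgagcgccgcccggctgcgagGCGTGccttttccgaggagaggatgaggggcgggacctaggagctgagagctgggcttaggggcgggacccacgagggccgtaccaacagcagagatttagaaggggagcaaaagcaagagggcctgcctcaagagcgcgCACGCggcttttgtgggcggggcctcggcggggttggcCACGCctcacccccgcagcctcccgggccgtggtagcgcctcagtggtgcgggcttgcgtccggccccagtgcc
The Nr1i3 window held 1 E-box, whose first base lay at -244 from the start. The Por window held the GCGTG core at -202, -62 and -24, the latter pair on the minus strand, and no E-box in these letters. Of 32851 mouse promoter windows of the same length, 7.15% held the E-box, 0.938% and 0.119% the D-box spellings, 16.3% the half-site and 32.4% the GCGTG core. The Nr1i2 window held none of these motifs, and the second of the Rxra windows held the half-site at -87 and -48. The RefSeq start used for Por lies inside the longer gene span that the count table's annotation gives.

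Each library held 17369927 to 22076113 counted reads (median 19106725). Arntl, the symbol of Bmal1, ranged from 0.63 to 39.5 CPM (counts scaled to a common library size) in SPF WT and from 0.33 to 40.96 in GF WT livers, against 8.52 to 29.3 in SPF LKO and 7.06 to 13.4 in GF LKO livers. Reads of exons outside the deleted part count toward it. Npas2, a clock gene that REV-ERB proteins repress, separated the genotypes at 14.4 to 36.4 CPM in SPF LKO and 16.8 to 44.5 in GF LKO livers and at most 9.89 and 12.96 in WT livers, except for 2 libraries. The SPF LKO libraries ZT14 replicate 2 and ZT18 replicate 1 held 0.22 and 1.83 CPM of Npas2, as WT livers do. The libraries SPF WT ZT14 replicate 3 (Arntl at 2.11 CPM, its neighbours at 15.8 and 19.3) and GF WT ZT6 replicate 3 (Arntl at 8.24 CPM, its neighbours at 1.64 and 2.42) went against their labelled time. All 4 were kept under their labels, and results that rest on them are given with and without them. Correlations between genes are the exception and were computed with all libraries only. The hepatocyte marker Alb was lower in LKO livers, by 0.98 on the log2 scale in SPF (edgeR adjusted p = 3.14e-06) and by 1.70 in GF mice (adjusted p = 2.90e-22). The 5 adipocyte and pancreas markers had a median of 0 CPM in every group.

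Compared per exon length, Rxra was the most abundant of the 5 transcripts in most libraries. In SPF WT livers Rxra was at 191.5 ± 34.95 TPM (reads per exon base, scaled to the same total in every library, SD, n = 18), Por at 161.8 ± 73.99, Nr1i2 at 84.7 ± 12.5, Nr1i3 at 33.2 over all of its exon bases and Ahr at 20.7. Por exceeded Rxra in 13 of the 72 libraries, and the spreads of the pair overlapped in both WT groups. When the length of Nr1i3 was set to the bases it does not share, its level in SPF WT livers became 132 ± 32.6 TPM, above Nr1i2, while Ahr was the lowest of the 5 in 71 of 72 libraries. The place of Nr1i3 in this order therefore turns on how its shared exons are counted.

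**Figure D1:**
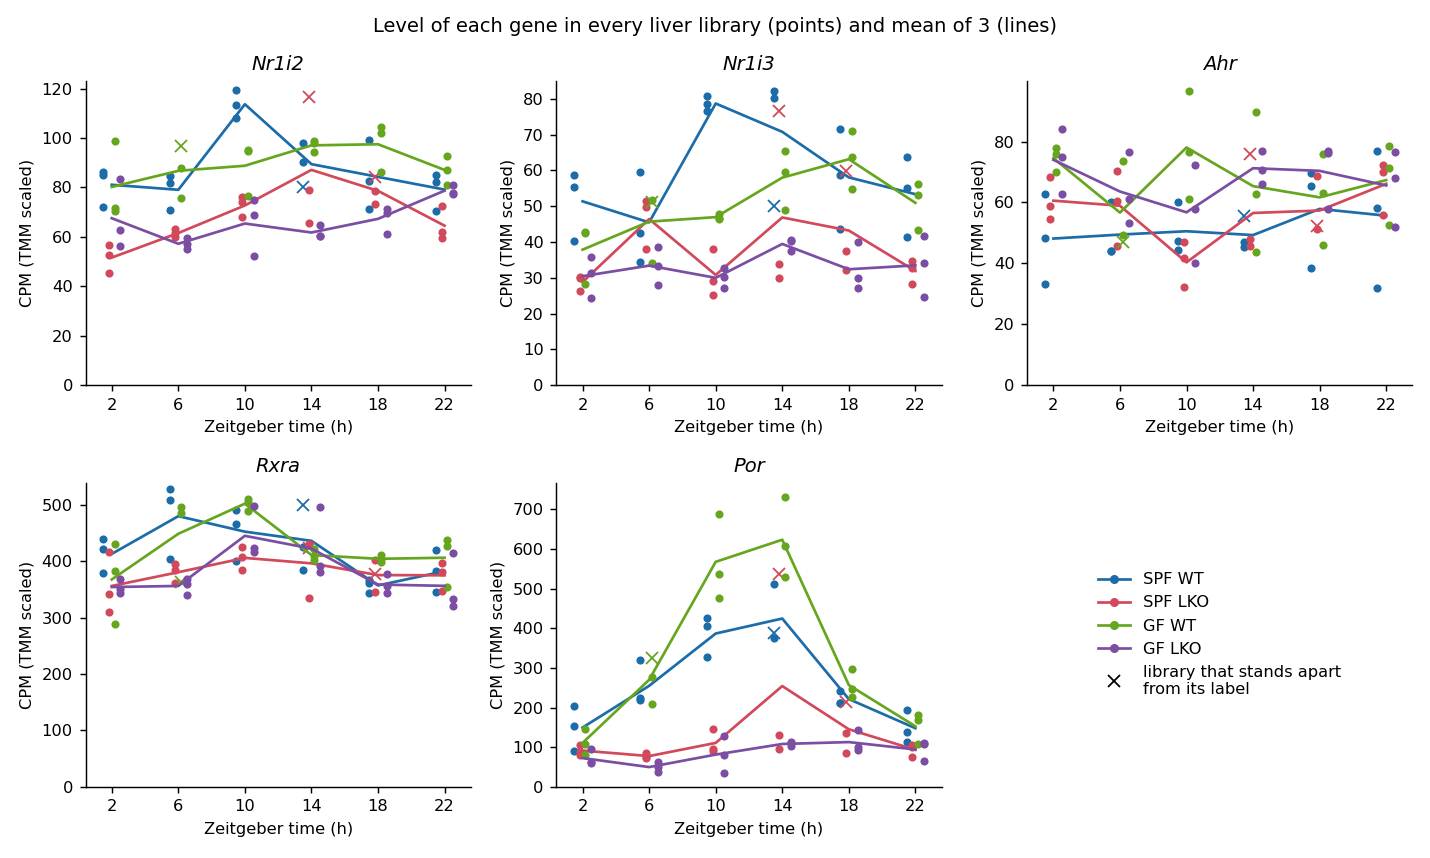
CPM (scaled by TMM factors) of each gene against zeitgeber time in hours. Points are single libraries, lines join the means of 3 mice, and crosses mark the 4 libraries that stand apart from their labels. Por spans 90.3 to 512.2 CPM in SPF WT and 79.7 to 732.3 in GF WT livers, while GF LKO livers stay at 34.4 to 143.8.

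Por RNA fell with loss of hepatocyte Bmal1 in both microbial states, with a larger log2 change than any of the receptors. In SPF WT livers Por ranged from 90.3 to 512.2 CPM with a median of 221.8, and in SPF LKO livers from 73.7 to 536.6 with a median of 95.2. In GF WT livers it ranged from 79.7 to 732.3 CPM with a median of 261.8, and in GF LKO livers from 34.4 to 143.8 with a median of 95.0. The groups overlapped in both states, with WT values of 203.7, 90.3 and 154.6 CPM at ZT2 in SPF mice inside the LKO range. Without the 2 SPF LKO libraries that stand apart the highest LKO value was 147 CPM, so that 203.7 and 154.6 lay above it and 90.3 below. With all ZT pooled, Por was 2.06-fold lower with the deletion in SPF mice (log2 change -1.04, SE 0.24, edgeR adjusted p = 0.00128, n = 18 per group) and 3.8-fold lower with it in GF mice (log2 change -1.93, SE 0.26, adjusted p = 1.17e-07). The SPF LKO library with the highest Por, at 536.6 CPM, was ZT14 replicate 2. Without the 3 SPF libraries that stand apart the fall in SPF mice was 2.63-fold (log2 change -1.40, adjusted p = 1.11e-07), and without GF WT ZT6 replicate 3 the fall in GF mice had a log2 change of -1.93 (adjusted p = 2.15e-07). In SPF mice the call was lost when every mouse numbered replicate 1 or every mouse numbered replicate 3 was left out (adjusted p = 0.0714 and 0.0531).

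Nr1i3 fell to a lesser degree. Its level was 34.3 to 82.1 CPM with a median of 58.7 in SPF WT livers and 25.2 to 76.6 with a median of 33.4 in SPF LKO livers. In GF mice it was 28.3 to 70.95 CPM with a median of 50.03 in WT and 24.3 to 41.7 with a median of 33.02 in LKO livers. The highest SPF LKO value again came from ZT14 replicate 2, and without the 2 LKO libraries that stand apart the highest was 51.6 CPM. CAR transcript was 1.58-fold lower in SPF LKO mice (log2 change -0.66, SE 0.14, adjusted p = 0.000372) and 1.51-fold lower in GF LKO mice (log2 change -0.60, SE 0.09, adjusted p = 2.91e-06). Tomm40l, with which Nr1i3 shares exons, changed by 0.02 on the log2 scale in SPF mice (adjusted p = 0.923) and rose by 0.39 in GF LKO mice (adjusted p = 0.00115).

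Nr1i2 showed the smallest of the 3 falls. PXR transcript stood at 70.5 to 119.4 CPM (median 84.8) in SPF WT and 45.6 to 116.6 (median 66.9) in SPF LKO livers. In GF mice it stood at 70.5 to 104.3 CPM (median 93.7) in WT and 52.3 to 83.5 (median 63.8) in LKO livers. It was 1.27-fold lower in SPF LKO mice (log2 change -0.35, SE 0.09, adjusted p = 0.00313) and 1.34-fold lower in GF LKO mice (log2 change -0.43, SE 0.06, adjusted p = 1.15e-06). Leaving out every mouse numbered replicate 1 ended the call in SPF mice (adjusted p = 0.0659).

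Rxra and Ahr did not pass the test for genotype in either state, although Rxra did under some alternatives. Rxra, the shared partner of PXR and CAR, was at 344.2 to 527.8 CPM (median 411.9) in SPF WT and 309.8 to 431.0 (median 385.3) in SPF LKO livers, with a log2 change of -0.14 (SE 0.06, adjusted p = 0.0565). In GF mice it was at 289.0 to 511.5 CPM (median 417.1) in WT and 321.1 to 497.6 (median 369.0) in LKO livers, again with a log2 change of -0.14 (SE 0.06, adjusted p = 0.0909). Rxra passed as lower under 12 of 52 alternatives in SPF and 5 of 51 in GF mice, among them ZT as a factor in both, with a lowest adjusted p of 0.0226 and 0.0256, while library totals in place of TMM factors turned its value in GF mice to 0.029 (adjusted p = 0.737). Ahr changed by 0.12 in SPF mice (SE 0.11, adjusted p = 0.442) and by 0.00 in GF mice (SE 0.10, adjusted p = 0.998). Thus 3 of the 5 genes were lower in LKO livers in each state, where 23.1% of all tested genes passed the test in SPF and 30.8% in GF mice, and 11.5% and 15.2% passed as lower. Alb and the sum of the 6 hepatocyte markers, of which Alb is 1, moved the same way. The sum had medians of 105900 CPM in SPF WT, 57010 in SPF LKO, 133000 in GF WT and 59430 in GF LKO livers. Alb alone had medians of 83740, 36380, 103900 and 32180 CPM in the same order. Of those 6 markers, edgeR called 1 lower and 0 higher with the deletion in SPF mice and 2 lower and 1 higher in GF mice. The median log2 change of the 6 was -0.02 in SPF and -0.10 in GF mice. The summed cholangiocyte markers had medians of 53.3 and 70.3 CPM in SPF WT and LKO and of 44.5 and 91.0 in GF WT and LKO livers, with 1 and 2 of 5 markers higher and none lower, and of 6 Kupffer cell markers 4 fell in SPF and 2 in GF mice. Hepatocyte number and RNA per hepatocyte cannot be told apart in whole liver. The part of Alb and of these markers in the falls of Por, Nr1i3 and Nr1i2 was not tested.

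**Figure D2:**
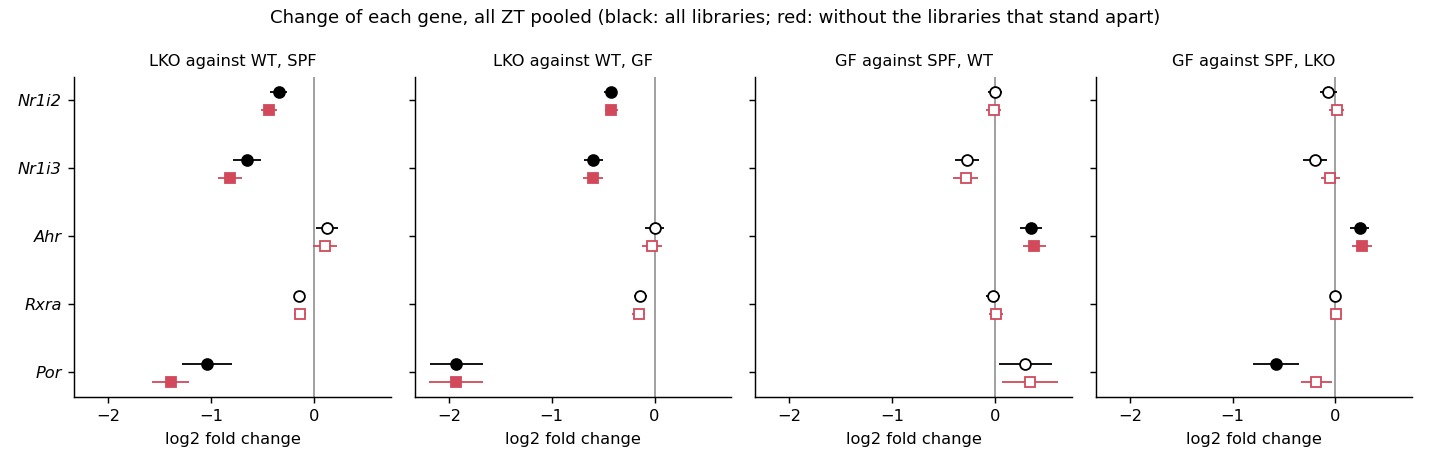
Log2 fold change of each gene with all ZT pooled, in the 4 comparisons named above the panels. Circles use all libraries and squares leave out the libraries that stand apart, bars are 1 SE, and filled symbols passed an adjusted p of 0.05. Por, Nr1i3 and Nr1i2 lie below 0 in both genotype panels and Ahr above 0 in both microbial panels.

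Por was also compared between genotypes at each ZT. At ZT6 SPF WT livers held 320.9, 219.9 and 223.7 CPM of Por and SPF LKO livers 84.3, 74.5 and 73.7. At ZT10 the WT values were 406.3, 425.0 and 328.7 CPM and the LKO values 89.9, 147.0 and 95.2. The groups did not overlap at either time, and Por was 3.29-fold lower at ZT6 (log2 change -1.72, adjusted p = 0.000244) and 3.5-fold lower at ZT10 (log2 change -1.81, adjusted p = 0.00301). At ZT14 the SPF LKO values were 95.1, 536.6 and 131.0 CPM against 374.3, 512.2 and 387.0 in WT livers, and Por did not pass (log2 change -0.76, adjusted p = 0.576). Without the libraries that stand apart, Por was lower at ZT14 by 1.97 on the log2 scale (adjusted p = 0.0001) and at ZT18 by 0.97 (adjusted p = 0.0188).

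In GF mice Por was lower in LKO livers at 4 of the 6 times. Por at ZT10 was 537.3, 477.5 and 687.9 CPM in GF WT and 34.4, 80.6 and 128.6 in GF LKO livers, which was 6.93-fold lower (log2 change -2.79, adjusted p = 8.79e-05). At ZT14 it was 732.3, 530.4 and 607.6 CPM against 110.4, 101.8 and 111.8, which was 5.80-fold lower (log2 change -2.54, adjusted p = 0.0146). It was also lower at ZT6, by 2.44 on the log2 scale (adjusted p = 1.23e-05), and at ZT18, by 1.16 (adjusted p = 0.0159), with no overlap of the groups at any of these 4 times. At ZT2 and ZT22 Por did not pass in either state, though its log2 change was below 0 each time. In SPF mice it was -0.73 at ZT2 (adjusted p = 0.137) and -0.68 at ZT22 (adjusted p = 0.191). In GF mice it was -0.61 (adjusted p = 0.306) and -0.69 (adjusted p = 0.174). The unadjusted p ran from 0.0143 to 0.0449.

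With all libraries, Nr1i3 separated most at ZT10 in SPF mice, where WT livers held 80.9, 78.6 and 76.7 CPM and LKO livers 25.2, 38.1 and 29.1. That was 2.56-fold lower (log2 change -1.35, adjusted p = 1.27e-05), with smaller falls at ZT2 (-0.85, adjusted p = 0.0159) and ZT22 (-0.76, adjusted p = 0.0446). At ZT14 the WT values were 82.1, 80.3 and 50.01 CPM and the LKO values 33.97, 76.6 and 29.99, and Nr1i3 did not pass (-0.61, adjusted p = 0.482). Without WT replicate 3 and LKO replicate 2, which stand apart, it was lower at ZT14 by 1.35 on the log2 scale (adjusted p = 0.0001133), as much as at ZT10. In GF mice the ZT10 values were 46.8, 46.3 and 47.8 CPM in WT and 27.03, 30.3 and 32.6 in LKO livers (log2 change -0.64, adjusted p = 0.00497), and Nr1i3 also fell at ZT18 (-0.94, adjusted p = 0.0290). Nr1i2 at ZT10 was 113.4, 108.2 and 119.4 CPM in SPF WT and 68.1, 73.95 and 76.1 in SPF LKO livers (log2 change -0.65, adjusted p = 0.00457). Nr1i2 was lower at 3 ZT in SPF mice and at 4 ZT in GF mice. Over the 30 tests of 5 genes at 6 ZT, 8 passed in SPF mice and 10 in GF mice, all lower in LKO livers and all of Nr1i2, Nr1i3 or Por, where 4.92% of the tests over all genes passed in SPF and 7.99% in GF mice. At ZT10 alone the shares were 11.9% and 13.1%. Without GF WT ZT6 replicate 3, Rxra also passed as lower in GF LKO livers at ZT6 (log2 change -0.46, adjusted p = 0.0286).

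**Figure D3:**
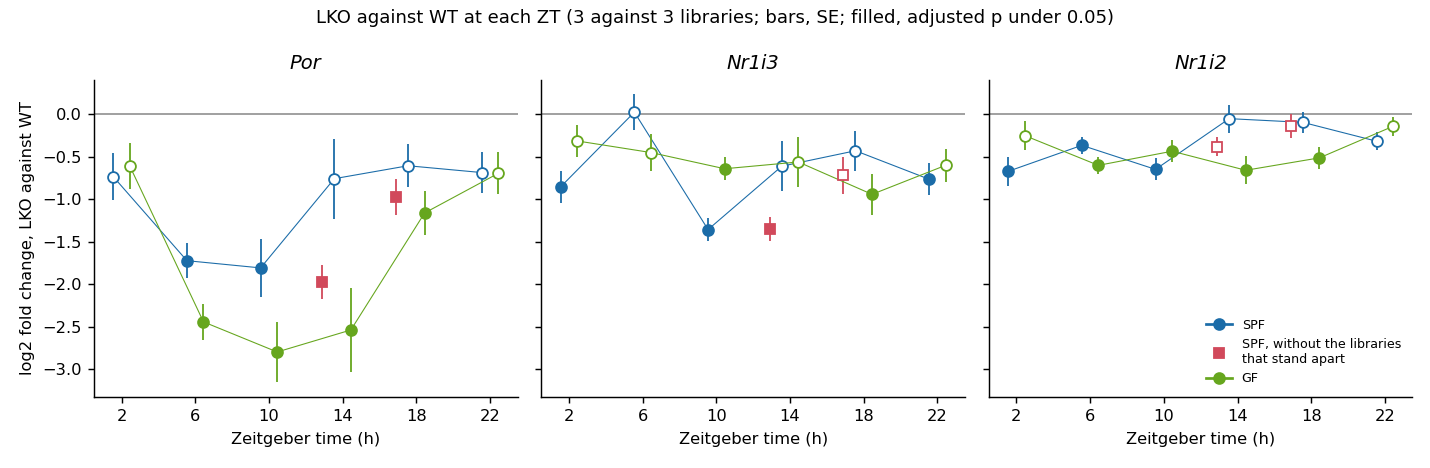
Log2 fold change of Por, Nr1i3 and Nr1i2 in LKO against WT mice at each ZT, with bars of 1 SE, for 3 against 3 libraries. Filled symbols passed an adjusted p of 0.05 over all genes at that ZT, and red squares leave out the SPF libraries that stand apart. In GF mice Por reaches -2.79 at ZT10, while at ZT2 and ZT22 it lies at -0.73 to -0.61 and is not called in either state.

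Por rose and fell over the day in WT livers. Its ZT means ran from 147.8 CPM at ZT22 to 424.5 ± 76.2 (SD, n = 3) at ZT14 in SPF WT mice, a 2.87-fold span, and from 110.7 at ZT2 to 623.4 ± 101.9 at ZT14 in GF WT mice, a 5.63-fold span. A 24 h cosine fitted to the counts passed in both (edgeR adjusted p = 2.86e-05 in SPF WT and 7.95e-08 in GF WT), with a log2 amplitude of 0.84 peaking at ZT 11.77 h and of 1.27 peaking at ZT 12.24 h. In GF LKO livers the means ran from 49.7 at ZT6 to 112.8 at ZT18 (amplitude 0.53, peak at ZT 17.22 h, adjusted p = 0.0139). The rhythm of Por differed between GF WT and GF LKO mice (adjusted p = 2.06e-05), and it differed without GF WT ZT6 replicate 3 as well (adjusted p = 1.86e-05).

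In SPF LKO mice the Por rhythm rested on the libraries that stand apart. With all 18 libraries its amplitude was 0.72 and the rhythm passed (adjusted p = 0.0235), and without ZT14 replicate 2 and ZT18 replicate 1 the amplitude was 0.25 and it did not (adjusted p = 0.126). The difference in rhythm between SPF WT and SPF LKO mice likewise turned on them, with an adjusted p of 0.344 with all libraries and 0.006 without the 3 SPF libraries that stand apart, when 2.51% of all genes passed. With all libraries 1.06% of genes passed this test in SPF mice and none of the 5 members did by edgeR or by limma, with 2 of 5 under an unadjusted p of 0.05. In GF mice 6.04% of genes passed and Por was the only member.

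With all libraries the cosine amplitude of each receptor was below that of Por in every group, at 0.04 to 0.34 against 0.53 to 1.27. Without the 2 SPF LKO libraries that stand apart, Ahr (0.31) and Nr1i2 (0.26) lay above Por (0.25) in SPF LKO livers. Rxra was rhythmic in SPF WT (amplitude 0.20, peak at ZT 7.92 h, adjusted p = 0.0261) and in GF LKO livers (0.17, ZT 11.87 h, adjusted p = 0.0234). Its highest mean in SPF WT livers was 480.4 ± 67.02 CPM at ZT6 and its lowest 357.4 ± 11.8 at ZT18, a 1.34-fold span. With all libraries, Nr1i3 passed in GF WT livers alone (0.31, ZT 16.15 h, adjusted p = 0.00974), with ZT means from 37.9 CPM at ZT2 to 63.2 at ZT18. Nr1i2 passed in SPF LKO livers alone (0.34, ZT 14.55 h, adjusted p = 0.00294), with ZT means from 51.6 CPM at ZT2 to 87.1 at ZT14, and it passed there also without both libraries that stand apart (adjusted p = 0.00635). Without SPF WT ZT14 replicate 3, Nr1i2 and Nr1i3 also passed in SPF WT livers (adjusted p = 0.0341 and 0.0373). Rxra passed in GF WT livers without GF WT ZT6 replicate 3 (adjusted p = 0.0461) but not with all libraries (0.101). Ahr passed in no group with all libraries, and in SPF LKO livers it passed without the 2 libraries (adjusted p = 0.0235, amplitude 0.31). With ZT as a factor in place of the cosine, the calls of Rxra in SPF WT (adjusted p = 0.158) and GF LKO (0.0667), of Nr1i3 in GF WT (0.0571) and of Por in GF LKO livers (0.0855) were lost. With all libraries, 2 of the 5 genes thus passed the cosine test in each group, against 15.5% of all genes in SPF WT, 22.2% in SPF LKO, 27.7% in GF WT and 36% in GF LKO livers.

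Ahr was higher in GF than in SPF livers, by a small amount. Ahr was at 31.9 to 77.1 CPM with a median of 47.7 in SPF WT livers and at 43.6 to 96.7 with a median of 70.5 in GF WT livers. In LKO mice it was at 32.2 to 76.02 CPM with a median of 55.2 in SPF and at 40.2 to 84.2 with a median of 69.5 in GF livers. The groups overlapped in both genotypes. The log2 change was 0.35 in WT mice (SE 0.11, adjusted p = 0.0144) and 0.24 in LKO mice (SE 0.09, adjusted p = 0.0451), and without the libraries that stand apart it was 0.38 (adjusted p = 0.00942) and 0.26 (adjusted p = 0.0305). Within single ZT the largest separation in WT mice was at ZT2, with 62.9, 33.3 and 48.3 CPM in SPF and 75.9, 69.9 and 77.99 in GF livers (log2 change 0.61, adjusted p = 0.0557).

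The Ahr call depended on how libraries were scaled. On the TPM scale, which has no TMM factor, Ahr averaged 20.7 in SPF WT and 22.8 in GF WT livers. With library totals in place of TMM factors the log2 change of Ahr was 0.18 in WT mice (adjusted p = 0.147) and 0.12 in LKO mice (adjusted p = 0.352), while the median of all genes moved from -0.02 to -0.19 in WT and from -0.02 to -0.13 in LKO mice. In WT mice it was also lost without ZT2 (adjusted p = 0.0745), without ZT10 (adjusted p = 0.0652), and when every mouse numbered replicate 2 or every mouse numbered replicate 3 was left out (adjusted p = 0.148 and 0.079). In LKO mice Ahr passed under 20 of 52 alternatives and Por, described next, under 31 of 52.

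The other members changed little with microbial status. Nr1i2 moved by 0.00 in WT and -0.07 in LKO mice, Rxra by -0.02 and 0.00, and Nr1i3 by -0.27 (SE 0.11, adjusted p = 0.0662) and -0.20 (adjusted p = 0.186), all on the log2 scale and none past the test. At ZT10 Nr1i3 was lower in GF WT than in SPF WT livers (log2 change -0.77, adjusted p = 0.0114), the 1 call among the 30 tests of members by ZT in WT mice, where 2.89% of all tests passed. In LKO mice none of the 30 passed by edgeR or DESeq2, with 7 under an unadjusted p of 0.05, and 2.71% of all tests passed. Por did not pass in WT mice (log2 change 0.29, SE 0.26, adjusted p = 0.399). In LKO mice Por was 1.49-fold lower in GF livers (log2 change -0.58, SE 0.22, adjusted p = 0.0402), but without the 2 SPF LKO libraries that stand apart the log2 change was -0.19 (adjusted p = 0.35). With all ZT pooled, 1 member passed in WT and 2 in LKO mice, where 31.8% and 36.4% of all genes passed.

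The genotype effect itself was compared between GF and SPF mice by an interaction term. Por had the largest value of the 5 (-0.89, SE 0.35, adjusted p = 0.493), and none of the 5 passed by edgeR or DESeq2, with Por alone under an unadjusted p of 0.05. Without the libraries that stand apart the interaction of Por was -0.54 (adjusted p = 0.929). Only 0.438% of all genes passed this test. A difference between GF and SPF mice in the size of the Por fall was thus not shown at this spread. In LKO mice the rhythm of Nr1i2 differed between SPF and GF livers (adjusted p = 0.0166, and 0.0382 without the 2 libraries), where 4.96% of genes passed. That call was lost with ZT as a factor (adjusted p = 0.152) and when mice numbered replicate 1, 2 or 3 were left out (adjusted p = 0.233, 0.117 and 0.107). In WT mice no member's rhythm differed with microbial status by edgeR or limma, with 1 under an unadjusted p of 0.05, and 0.0442% of genes passed.

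The genes that the receptors regulate moved in both directions with genotype. Of 29 tested PXR and CAR target genes, 11 were higher and 8 lower in SPF LKO mice and 8 were higher and 13 lower in GF LKO mice, with median log2 changes of -0.05 and -0.22 beside -0.01 and 0.01 over all genes. Over all genes 23.1% passed for genotype in SPF and 30.8% in GF mice. Cyp2c55, a P450 of arachidonate and drug oxidation, rose from 10.96 ± 5.06 to 149 ± 62.6 CPM in SPF mice (log2 change 3.76, adjusted p = 4.97e-12) and from 9.19 ± 3.70 to 94.8 ± 29.2 in GF mice (3.37, adjusted p = 3.84e-18). Gstm3, a glutathione transferase, rose by 3.24 and 2.40. Ugt1a9, which conjugates phenols and drugs with glucuronic acid, fell from 39.95 ± 16.02 to 12.6 ± 10.5 CPM in SPF mice (-1.68, adjusted p = 5.60e-06) and from 26.2 ± 7.50 to 2.64 ± 1.42 in GF mice (-3.31, adjusted p = 4.81e-17). Abcb1a, a drug efflux pump, fell in SPF mice by 1.54 (adjusted p = 2.96e-05), and Cyp2b9 fell in GF mice from 3.24 ± 4.68 to 0.21 ± 0.26 CPM, with 5 libraries at 0. Of 8 markers of pericentral hepatocytes, the zone where many of these enzymes are made, 2 fell and 1 rose with the deletion in SPF mice and 4 fell and 1 rose in GF mice, and their part in these counts was not tested.

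Without the libraries that stand apart the list stood at 11 higher and 10 lower in SPF mice and 9 higher and 13 lower in GF mice. With library totals it stood at 13 higher and 7 lower in SPF and 11 of each in GF mice, and the median in SPF mice turned to 0.06, while that of all genes moved from -0.01 to 0.10 in SPF and from 0.01 to 0.18 in GF mice. The Cyp2b, Cyp2c, Cyp3a, Gstm, Ces2 and Ugt1a families hold near-identical copies or shared exons that the counting drops or splits, so values of single members are uncertain.

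With microbial status, more of the called targets were lower than higher in GF livers. In WT mice 2 of 30 tested targets were higher and 8 lower in GF livers, and in LKO mice 2 of 28 were higher and 16 lower, with medians of -0.10 and -0.32 beside -0.02 in both over all genes. The 10 called in WT mice were near the 31.8% of all genes that passed and 20 did not pass, and the 18 called in LKO mice compare with 36.4%. Cyp3a11, a major drug-oxidizing P450 and a classical PXR target, fell from 5287 ± 1591 to 1004 ± 1295 CPM in WT mice (log2 change -2.43, adjusted p = 4.00e-07). It fell from 6182 ± 1019 to 191.9 ± 65.7 CPM in LKO mice (-5.02, adjusted p = 3.21e-27). Its SD exceeded its mean in GF WT livers, which were thus uneven, and the interaction of Cyp3a11 given below uses the same livers. In WT mice Cyp3a59 fell by 1.20 and Cyp2b9 rose by 1.72, and in LKO mice Ugt1a9 fell by 2.25 and Cyp2c37 rose by 0.47. Cyp2b9 was low and uneven, at 0.95 ± 1.45 CPM in SPF WT and 3.24 ± 4.68 in GF WT livers. Sult2a8, a bile acid sulfotransferase, rose in both genotypes, by 0.23 and 0.28. The levels of Nr1i2 itself did not pass in these comparisons. The interaction passed for 4 genes of the list, named after their values were seen, all with a more negative genotype effect in GF mice: Cyp3a11 (-2.61, adjusted p = 1.77e-07), Cyp2a5 (-1.72, adjusted p = 0.0272), Ces2a (-0.47, adjusted p = 0.00231) and Ugt1a9 (-1.63, adjusted p = 0.0031).

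**Figure D4:**
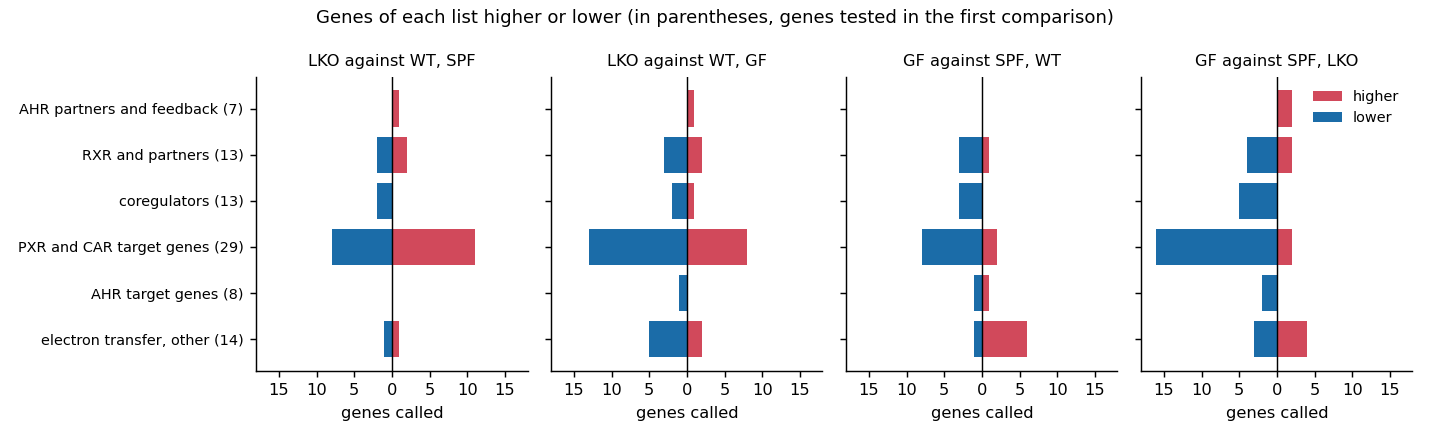
Number of genes of each list that passed an adjusted p of 0.05 as higher (right of 0) or lower (left of 0) in the 4 pooled comparisons. The PXR and CAR targets split 11 to 8 in SPF and 8 to 13 in GF mice by genotype, and 2 to 8 in WT and 2 to 16 in LKO mice by microbial status. Over all genes 23.1%, 30.8%, 31.8% and 36.4% passed in these comparisons, in the same order.

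Few of the listed AHR pathway genes passed beside Ahr, though with microbial status Ugt1a6a changed more than Ahr did in both genotypes. Of 7 tested partners and feedback genes, Dnajc7, a co-chaperone, was higher in LKO mice by 0.21 in SPF and 0.26 in GF mice, and none was lower. Over all genes 23.1% passed for genotype in SPF and 30.8% in GF mice. In GF against SPF livers, none passed in WT mice by edgeR, with 3 of 7 under an unadjusted p of 0.05. In LKO mice Dnajc7 rose by 0.15 (adjusted p = 0.0316). Of 8 AHR targets, none passed for genotype in SPF mice, with 1 under an unadjusted p of 0.05, and in GF mice Ugt1a6b fell (-0.26, adjusted p = 0.0373) and no other target passed. With library totals the genotype counts in GF mice turned to 2 targets higher and 0 lower, and 5 of the 7 partners were higher. Under that scaling the median log2 change of all genes moved from 0.01 to 0.18. In WT mice Cyp1a2, the constitutive hepatic target that oxidizes caffeine, rose from 552 ± 100 to 724 ± 120 CPM without microbes (0.36, adjusted p = 0.000871), while Ugt1a6a fell by 0.90. In LKO mice Ugt1a6a and Ugt1a6b fell by 0.82 and 0.34. Over all genes 31.8% passed for microbial status in WT and 36.4% in LKO mice. With library totals 1 target was higher and 4 were lower in GF WT mice, where the median of all genes was -0.19.

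Of 13 retinoid X receptors and partner receptors tested beside Rxra, genes of the PPAR family and Thra were among those that changed with genotype. Ppard rose by 1.72 and 1.39 on the log2 scale in SPF and GF LKO mice, from 10.1 ± 8.28 to 33.4 ± 13.1 CPM in SPF mice. Thra, a thyroid hormone receptor, rose by 0.46 and 0.74. Ppara, the receptor of fatty acid oxidation, fell by 0.67 and 0.80, and Pparg fell by 0.43 and 1.09. In GF against SPF livers Nr1h3, the oxysterol receptor LXR alpha, rose by 0.15 in WT and 0.26 in LKO mice, and Pparg fell by 0.42 and 1.06. Of 13 coregulators, Ppargc1b fell with genotype by 0.68 and 0.56 and Nr0b2, the repressor SHP, fell in SPF mice by 0.61. Ncoa6 and Ncoa3, both coactivators, fell without microbes by 0.27 and 0.22 in WT and by 0.30 and 0.26 in LKO mice. With genotype, 2 of the partner receptors were higher and 2 lower in SPF and 2 higher and 3 lower in GF mice, and 0 coregulators were higher and 2 lower in SPF and 1 higher and 2 lower in GF mice by edgeR. Over all genes 23.1% passed for genotype in SPF and 30.8% in GF mice. With library totals the balance in GF mice turned, to 4 partner receptors higher and 2 lower and 2 coregulators higher and 0 lower, and in SPF mice the counts were 2 and 1 for both lists. Under that scaling the median log2 change of all genes was 0.10 in SPF and 0.18 in GF mice. Without the libraries that stand apart, 2 partner receptors were higher and 3 lower in SPF mice.

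Over all genes 23.1% passed for genotype in SPF and 30.8% in GF mice. Among 14 genes that carry electrons beside Por or take them from it, genotype moved 1 up and 1 down in SPF mice and 2 up and 5 down in GF mice. With library totals these became 5 up and 1 down in SPF and 6 up and 2 down in GF mice, where the median log2 change of all genes was 0.10 and 0.18. Without the libraries that stand apart they were 4 up and 2 down in SPF and 1 up and 4 down in GF mice. Cyb5r1, a cytochrome b5 reductase, fell by 0.46 and 0.43, and Mtrr, a methionine synthase reductase of the same flavoprotein family as POR, rose in SPF mice by 0.29. In GF mice Hmox2 rose by 0.28 and Hmox1 fell by 0.41. The acceptors in sterol synthesis rose without microbes. Sqle, squalene epoxidase, rose from 42.7 ± 30.2 to 116 ± 32.6 CPM in WT mice (1.41, adjusted p = 2.81e-05) and by 0.91 in LKO mice, and Cyp51, which demethylates lanosterol, rose by 1.30 and 1.05. Over all genes 31.8% passed for microbial status in WT and 36.4% in LKO mice. In all, 6 of the 14 were higher and 1 lower in GF WT livers, and 4 were higher and 3 lower in GF LKO livers. With library totals these microbial counts became 3 and 4 in WT and 4 of each in LKO mice, where the median of all genes was -0.19 and -0.13.

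Over the 24 means of group and ZT, Nr1i2, Nr1i3 and Por varied together. Pearson's r of mean log2 CPM was 0.81 for Nr1i2 and Nr1i3, 0.82 for Nr1i2 and Por and 0.77 for Nr1i3 and Por. Rxra followed Por less closely (0.65), and r for Ahr with the other members ran from -0.28 to -0.15. When each library's deviation from its own mean was used, over 72 libraries, r was 0.57, 0.48 and 0.48 for the first 3 pairs and 0.40 for Ahr and Por. These values are descriptions, since the means share their libraries' scaling. They include the 4 libraries that stand apart, and r without those was not computed, here or for the likeness values below. SPF LKO ZT14 replicate 2 lay above both its neighbours in Nr1i2 (116.6 against 65.69 and 79.01 CPM). The same held for Nr1i3 (76.63 against 29.99 and 33.97) and Por (536.6 against 95.14 and 131). SPF LKO ZT18 replicate 1 also lay above its neighbours in these genes, and the part of both libraries in r was not tested.

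Of 10705 genes whose log2 CPM averaged 1 or more, the pattern most like that of Por over the 24 means was that of Rhbdd2, a rhomboid-family membrane protein gene (r = 0.97), followed by Slc9a3r1 (0.96), a scaffold of transporters, and Slc16a12 (0.95), a creatine transporter. Rhbdd2 lies on the same chromosome as Por, at chr5:135632618-135646448, with 23584 bases between the gene spans. Its level was 17.1 CPM on average in SPF WT and 11.2 in SPF LKO livers, and 17.7 in GF WT and 8.25 in GF LKO livers. Cyp2a5, a P450 of nicotine and coumarin oxidation, was chosen here after its values were seen. Among 26 PXR and CAR targets it had the highest r with Por (0.93). The median r of those 26 was 0.13, and Cyp2c29 was lowest at -0.86. Cyp2a5 fell in LKO mice by 1.47 in SPF (adjusted p = 0.00136) and by 3.18 in GF mice (adjusted p = 4.36e-14). For Nr1i3 the most alike genes were C730036E19Rik (0.90), Chd3 (0.89), a chromatin remodeler, and Aatk (0.87), a kinase. For Nr1i2 they were Map1lc3a (0.88), an autophagosome protein, Abhd6 (0.88), a lipid hydrolase, and Gde1 (0.87), a phosphodiesterase. Rxra was most like Myo18a (0.92), an unconventional myosin, Klhl21 (0.90) and Cpt1a (0.88), the entry enzyme of mitochondrial fatty acid oxidation. The genes nearest to Ahr were less alike, with Cyp4f14 at 0.78, Acad9 at 0.76 and Mvk at 0.75, and over the 72 single libraries those values were 0.45, 0.42 and 0.47.

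**Figure D5:**
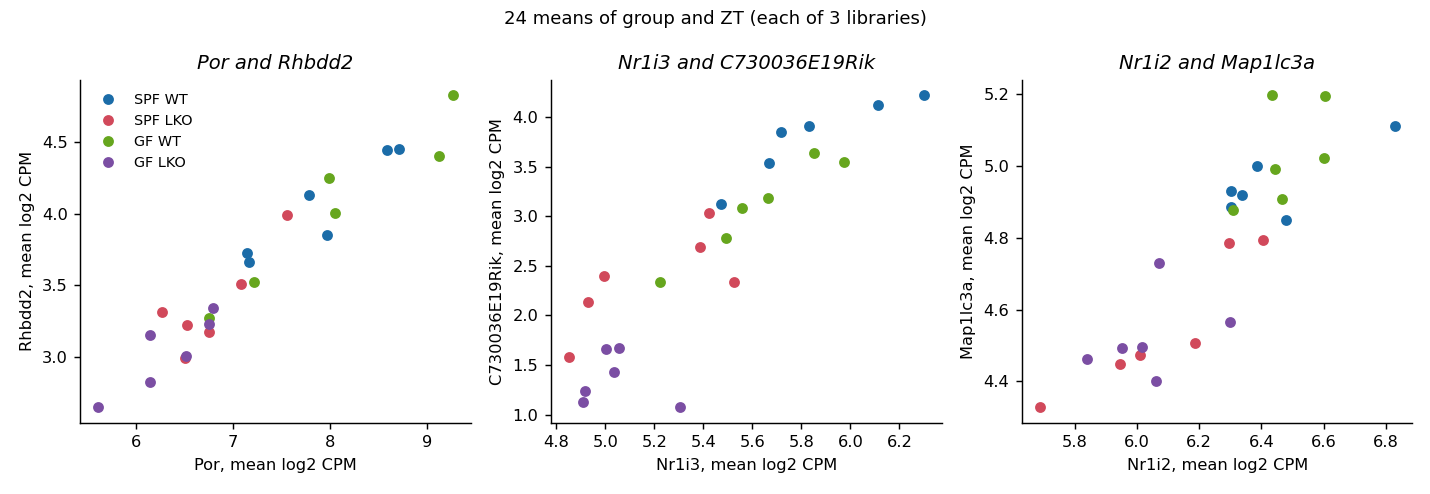
Mean log2 CPM of Por, Nr1i3 and Nr1i2 against that of the gene most like each, over 24 means of 3 libraries, coloured by group. The points of the LKO groups lie toward the low end of each panel, and Por with Rhbdd2 is the tightest pair (r = 0.97).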

How the data were processed

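Per the labels and the study's methods, stranded mRNA libraries of whole liver were sequenced as single-end reads of 50 bases, aligned to mm10 with STAR 2.6.1b and counted per gene with featureCounts 2.0.0 (Ensembl 97 exons, no strand option, reads on several genes or sites dropped). The authors deposited raw counts, which were used as they stand; symbols came from GENCODE M21. Nothing says that mice of a group shared a litter or cage. By the methods, SPF mice were bred in a vivarium, and GF mice were rederived and kept in a gnotobiotic facility. Microbial status therefore cannot be told apart from colony and facility.

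Counts were tested with edgeR 4.0.16 (quasi-likelihood test, TMM factors, filterByExpr), with Benjamini-Hochberg adjustment over all tested genes and a threshold of 0.05. CPM were scaled by TMM factors. Comparisons pooled ZT, took single ZT (all 12 libraries of that ZT in 1 fit), fitted a 24 h cosine, or tested interactions. DESeq2 1.42.0, limma 3.58.1 on variance-stabilized values, other scalings, filters, replicate block and left-out libraries were alternatives. The main edgeR fits were also run on simulated data, and the alternatives were not. The 5 genes and the lists were chosen with earlier results of these data known. From each list the 2 called genes with the largest change in each direction were named, except 1 that is not reported here, and likeness was Pearson's r over 24 means. Promoter windows came from RefSeq on GRCm38.p6.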

Additional observations from a re-analysis of the deposited data

Results flagged for a closer look

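The 24 h rhythm of Por differed between GF WT and GF LKO mice, by an interaction of genotype with the cosine (edgeR adjusted p = 2.06e-05), with amplitudes of 1.27 and 0.53 on the log2 scale. The rhythm of Nr1i2 differed between SPF LKO and GF LKO mice by the same kind of test (adjusted p = 0.0166), with amplitudes of 0.34, peaking at ZT 14.55 h, and 0.15, peaking at ZT 21.14 h. Both entries are differences of an effect between groups, and no explanation was tested. The first passed under each of its 9 alternatives, with an adjusted p of at most 0.00585, and the second under 7 of its 11.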

How the results depend on the processing

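Por, Nr1i3 and Nr1i2 were lower in LKO mice in both microbial states under each pooled alternative, with the calls of Por in SPF mice lost in 2 of 52 settings and of Nr1i2 in SPF mice in 1 of 52, and no other call of these genes lost. The log2 change of Por ran from -1.40 to -0.86 in SPF and from -2.10 to -1.69 in GF mice. Deviations of same-numbered mice had median correlations of -0.05 to 0.01 over 18 pairs per comparison. Single pairs ran from -0.36 to 0.46, and pairs with different numbers from -0.50 to 0.38. Whether same-numbered mice shared a day or batch was not tested. With a replicate block 2 members were called for microbial status in WT mice and 3 by ZT, and the calls of Nr1i2 at ZT6 and Nr1i3 at ZT22 in SPF mice and of Nr1i2 at ZT10 and ZT14 in GF mice were lost.

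For microbial status in WT mice, where 1 member passed, 2 passed with ZT as a factor or without ZT18, 0 without ZT2 or ZT10, and 3 with library totals. In LKO mice, where 2 passed, 1 passed with DESeq2 or without all libraries that stand apart, and 0 with no filter or without ZT2, ZT6, ZT10, ZT14 or ZT18. By ZT, no filter gave 16 calls in place of 10 for genotype in GF mice, 6 in place of 1 for WT mice and 5 in place of 0 for LKO mice. A single fit of all 72 libraries gave 0 and 2 for the last pair, and DESeq2 gave 2 for WT mice. For rhythm, ZT as a factor left 1 member in SPF LKO, 1 in GF WT, 0 in GF LKO and 0 for the difference in LKO mice, limma left 1 in SPF LKO, and without the libraries that stand apart 1 member's rhythm differed by genotype in SPF mice. For most alternatives of this section the share of all genes that passed is not given, so these member counts cannot be set against it.

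Leaving out mice gave 1 to 4 and 3 to 4 calls for genotype in SPF and GF mice, 0 to 2 for microbial status in WT and in LKO mice, and 0 to 2 by ZT in WT mice. It gave 1 to 4 rhythmic members in SPF WT and 1 to 3 in GF LKO mice, and 0 to 1 rhythm differences by genotype in SPF mice and by microbial status in LKO mice.

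Values near 0 changed sign. Ahr for genotype in GF mice became -0.0069 (DESeq2), -0.0053 (RLE factors), -0.0094 (no filter), -0.025 (without ZT14), -0.037 (without ZT18) and -0.032 (without ZT6), and -0.030 to 0.048 with mice left out. Rxra for genotype in GF mice became 0.029 with library totals. For microbial status in WT mice Rxra became 0.0011 (DESeq2), 0.018 (no filter), 0.00037 (replicate block), 0.0047, 0.016 and 0.0044 (without ZT14, ZT2 and ZT6) and 0.0093 (without the libraries that stand apart), and -0.048 to 0.022 with mice left out. Nr1i2 there became -0.17 (library totals, adjusted p = 0.0267), -0.014, -0.025, -0.017 and -0.019 (without ZT14, ZT18, ZT22 and ZT6) and -0.013 (without the libraries that stand apart), and -0.048 to 0.079 with mice left out. For microbial status in LKO mice Rxra became 0.0051 (DESeq2), 0.00092 (RLE), 0.00016 (no filter), 0.0057 (replicate block), 0.0022, 0.012 and 0.016 (without ZT18, ZT22 and ZT6) and 0.0053 (without the libraries that stand apart), and -0.053 to 0.069 with mice left out. Nr1i2 there became 0.019 without ZT14 and 0.013 without those libraries. For the interaction Rxra became 0.0030 (DESeq2), 0.0033 (RLE), 0.0038 (ZT as a factor), 0.075 (library totals), 0.0089 (replicate block), 0.0015, 0.048 and 0.025 (without ZT10, ZT18 and ZT22), and -0.052 to 0.10 with mice left out. Nr1i3 there became -0.087 and -0.019 (without ZT10 and ZT2), and -0.026 to 0.15 with mice left out, and Nr1i2 became 0.034 (without ZT14) and 0.0068 (without the libraries that stand apart). The library totals, the fits without the libraries that stand apart by ZT and that for SPF LKO rhythm were chosen after seeing the data, and the cause of each change was not tested. Each member had at least 455 reads in every library, and 3 mice per group and ZT limit the precision.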

Other observations

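A 24 h cosine was also fitted to the pathway genes. Of the PXR and CAR targets, 6 of 30 tested were rhythmic in SPF WT, 3 of 29 in SPF LKO, 14 of 29 in GF WT and 11 of 28 in GF LKO livers, where 15.5%, 22.2%, 27.7% and 36% of all genes were. Of the 14 genes of electron transfer, 2, 4, 7 and 4 were rhythmic in the same order of groups, and of the 13 retinoid X receptors and partner receptors 2, 2, 4 and 5. Of the 7 AHR partners 1, 2, 3 and 4 passed and of the 8 AHR targets 0, 1, 0 and 1 by edgeR. Of the 13 coregulators 0, 2, 5 and 2 passed. These counts were not compared between groups by a test.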
